A study of Mus musculus with 33 samples.

Results

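The genes described here take up cystine, make and break down glutathione, and answer to the transcription factor Nrf2. They are Slc7a11, Chac1, Cth, Gclc, Gclm, Gpx4, Nqo1, Txnrd1 and Srxn1, 9 of the 32245 genes in each table, chosen by gene symbol. RNA from mouse cardiomyocytes, the beating muscle cells of the heart, was sequenced after ribosomal RNA had been depleted, and the labels call the molecule nuclear RNA. The question the genotypes pose is how these cells respond to loss of Ptpmt1, a mitochondrial phosphatase on the route to cardiolipin, and whether the response needs eIF2 signalling. In the FST line the groups were the double (cardiomyocyte-specific Ptpmt1 knockout with an Eif2a mutant), the Ptpmt1 knockout alone, the mutant alone, spelled Eif2alpha in its label, and control, with 3 libraries each. In the PHT line they were the double of Ptpmt1 and Hri knockout (2 libraries), the Ptpmt1 knockout (3), the Hri knockout (2), labelled cardiomyocyte-specific only where it stands alone, and control (2). In the PTGC line they were the double of Ptpmt1 and Gcn2 knockout and control, with 3 libraries each and no single mutant. The labels name neither the alleles, the Cre driver, what the controls carry, nor age and strain, and 6 samples of a line with the Ptpmt1 knockout alone are not analysed here.

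Cystine enters cells through system xc-, an exchanger made of the transporting chain Slc7a11 and the partner chain Slc3a2, and inside the cell it becomes cysteine, the scarce building block of glutathione. Nrf2 (gene Nfe2l2) is held down by Keap1 and, when oxidants or electrophiles free it, switches on genes for glutathione synthesis and thiol repair through antioxidant response elements. Atf4, which is translated when eIF2 alpha is phosphorylated by kinases such as Hri and Gcn2, acts on amino acid genes through C/EBP-ATF response elements, and Slc7a11 is a known target of both factors.

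Both kinds of element were searched in the promoters, since the members divide below into genes that moved with loss of Ptpmt1 and genes that did not. Promoters came from RefSeq (GRCm38.p6) and held 250 bases before and 50 from the start onwards, and 7 members had at least 1. Cth and Gclc had no entry in that table. The motifs were TGATGNAA, the core of C/EBP-ATF elements, and TGACNNNGC and TGAGNNNGC, the core of antioxidant elements, on both strands. They occurred in 3.97%, 12.39% and 17.65% of 32851 promoters of the same length. Below are the promoters of the members that rose in every line, Slc7a11 (chr3:50443564-50443863, minus strand) and Chac1 (chr2:119350992-119351291, plus strand), then of a pair of Nrf2 targets that did not, Gclm (chr3:122245307-122245606, plus strand) and Srxn1 (chr2:152105274-152105573, plus strand). Each is written 5′ to 3′ on the gene's strand, and capitals mark the matches.
Slc7a11: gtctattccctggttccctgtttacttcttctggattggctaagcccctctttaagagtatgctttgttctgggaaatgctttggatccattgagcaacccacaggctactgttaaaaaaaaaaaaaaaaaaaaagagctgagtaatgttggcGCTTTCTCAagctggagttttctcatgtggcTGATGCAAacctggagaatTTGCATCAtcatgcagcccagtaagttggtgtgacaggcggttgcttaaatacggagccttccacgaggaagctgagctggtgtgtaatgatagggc
Chac1: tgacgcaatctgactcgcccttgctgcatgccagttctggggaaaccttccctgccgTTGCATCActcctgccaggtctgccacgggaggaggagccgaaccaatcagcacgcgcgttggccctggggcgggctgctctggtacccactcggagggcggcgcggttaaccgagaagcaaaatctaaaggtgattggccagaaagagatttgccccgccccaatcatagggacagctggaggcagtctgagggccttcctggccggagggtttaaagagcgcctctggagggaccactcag
Gclm: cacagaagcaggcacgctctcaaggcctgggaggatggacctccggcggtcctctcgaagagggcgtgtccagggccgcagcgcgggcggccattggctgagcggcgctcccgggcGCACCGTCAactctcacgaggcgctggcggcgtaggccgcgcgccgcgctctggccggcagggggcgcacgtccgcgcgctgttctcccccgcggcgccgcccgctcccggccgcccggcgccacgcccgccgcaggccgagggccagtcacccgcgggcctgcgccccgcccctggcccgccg
Srxn1: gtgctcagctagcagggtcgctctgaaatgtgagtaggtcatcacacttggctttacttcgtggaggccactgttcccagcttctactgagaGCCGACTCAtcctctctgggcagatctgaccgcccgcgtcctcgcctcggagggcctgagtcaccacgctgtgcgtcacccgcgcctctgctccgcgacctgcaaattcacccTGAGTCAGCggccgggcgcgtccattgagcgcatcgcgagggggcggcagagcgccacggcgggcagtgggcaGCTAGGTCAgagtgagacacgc
Slc7a11 held 2 C/EBP-ATF matches on opposite strands and 1 antioxidant match, and Chac1 held 1 C/EBP-ATF match. Counting the first base after the 250 upstream bases as 0, the C/EBP-ATF matches began at -66 and -47 in Slc7a11 and at -193 in Chac1. Gclm held 1 antioxidant match and Srxn1 held 3, and neither held the C/EBP-ATF core. Txnrd1 had 1 antioxidant match in 1 of its 3 promoters, and the promoters of Gpx4 (4) and Nqo1 (1) had no match in these windows.

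Ptpmt1 itself (normalized counts, mean ± SD) was 45.2 ± 4.87 in FST doubles and 35.5 ± 4.71 in FST Ptpmt1 knockouts, against 163.1 ± 10.35 in FST controls (n = 3 each). It was 77.4 ± 0.957 in PHT doubles (n = 2) and 48.8 ± 13.8 in PHT Ptpmt1 knockouts (n = 3), against 265 ± 33.6 in PHT controls (n = 2), and 71.2 ± 4.48 in PTGC doubles against 328 ± 35.4 in PTGC controls (n = 3 each). Exons of Kbtbd4 overlap those of Ptpmt1, and reads of the overlap cannot be assigned here. Eif2ak1, the gene of Hri, averaged 510.1 and 403 in PHT doubles and Hri knockouts, against 569 in controls, and Eif2ak4, the gene of Gcn2, 350.3 in PTGC doubles against 392 in controls. Neither was called, and neither value per gene can show a partial deletion, nor can Eif2s1, the gene of eIF2 alpha, show a point mutation. Reads in genes ran from 1887978 to 12583868 in FST, 10739569 to 19405261 in PHT and 10795644 to 19326112 in PTGC. In FST, double replicate 2 (1887978 reads) and Eif2a mutant replicate 1 stood apart, with 15336 and 15157 genes with reads against 17567 or more elsewhere in that table. The 10 cardiomyocyte markers were detected in every library and held 3.92% to 6.93% of the signal. Fibroblast markers held 0.114% to 0.291%, endothelial markers at most 0.118%, mural markers at most 0.166%, macrophage markers at most 0.00782% and lymphocyte markers at most 7e-05%. Erythroid markers held 0.0640% to 0.779%. Where a value differs between such bulk samples, fewer cells of a type and less RNA per cell cannot be told apart. A male pattern was seen in 2 of 3 doubles, 3 of 3 knockouts, 3 of 3 Eif2a mutants and 1 of 3 controls in FST, in 2 of 2 doubles, 1 of 3 knockouts, 2 of 2 Hri knockouts and 0 of 2 controls in PHT, and in 2 of 3 libraries of each PTGC group.

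Loss of Ptpmt1 raised Slc7a11 and Chac1 in FST, and the remaining 7 members were not called. Slc7a11 (chromosome 3, 49892526 to 50443614, minus strand, GRCm38), the cystine-transporting chain, had 99.4, 108.0 and 152.1 normalized counts in FST Ptpmt1 knockouts, against 9.05, 7.48 and 5.15 in controls. Chac1 (chromosome 2, 119351229 to 119354381, plus strand), which cleaves glutathione in the cytosol, had 67.6, 76.7 and 158.4 in the knockouts, against 3.29, 4.16 and 2.94 in controls. Both groups stood far apart for both genes, and replicate 3 was the highest knockout each time. The log2 fold change on the log2(value + 1) scale was 3.88 ± 0.73 for Slc7a11 (± SE, limma adjusted p = 0.0291) and 4.42 ± 0.73 for Chac1 (limma adjusted p = 0.0109). These are 2 of 9 members, in a comparison that called 0.504% of 13896 tested genes. In FST and PHT every control of both genes lay below the value of 10 that testing required. Chac1 met it there mainly through the Ptpmt1 knockouts. Summed over the libraries and scaled for depth, reads were 17.2 times as many for Slc7a11 (480 against 27 reads, 95% counting interval 11.7 to 26.4) and 31.1 times as many for Chac1 (417 against 13 reads, 18.0 to 58.9). Cth (chromosome 3, 157894248 to 157925077, minus strand), which releases cysteine from cystathionine, had 49.3, 62.5 and 99.1 in the knockouts, against 17.3, 14.1 and 8.82 in controls. Its groups did not overlap either, and its change of 2.29 ± 0.49 missed the threshold (limma adjusted p = 0.0505). It was called by edgeR (adjusted p = 0.0115) and by DESeq2 without its filter on low counts (adjusted p = 6.52e-05). Knockout replicate 3 also had the highest share of fibroblast markers, 0.291% against 0.148% and 0.150% in the other knockouts and 0.135% to 0.164% in controls, and both limma calls held without that library. Its erythroid markers held 0.223%, against 0.0640% and 0.0712% in the other knockouts and 0.0688% to 0.276% in controls. The limma calls of both genes were lost without any 1 of the controls (adjusted p = 0.0526 to 0.117) or with a term for sex (0.270 and 0.126), and that of Slc7a11 also without knockout replicate 1 or 2 (0.0872 and 0.0959). The changes themselves stayed near the values above, at 3.86 for Slc7a11 and 4.46 for Chac1 with the sex term and at 3.69 to 4.04 and 4.33 to 4.53 without a control.

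The same genes were low when Eif2a was mutant as well. In FST doubles Slc7a11 had 10.9, 35.4 and 1.17 normalized counts, against 99.4, 108.0 and 152.1 in Ptpmt1 knockouts. Chac1 had 6.23, 13.3 and 2.34 in doubles, against 67.6, 76.7 and 158.4 in knockouts. The highest double in each case was replicate 2, the shallow library, where these values rest on 8 and 3 reads. Both fell against the knockout, with a change of -3.60 ± 0.73 for Slc7a11 (limma adjusted p = 0.0302) and -3.76 ± 0.73 for Chac1 (limma adjusted p = 0.0259). They were the only members of 9 called in this comparison, where 0.878% of tested genes were, and it shares its knockout libraries with the one before. Cth had 12.5, 35.4 (8 reads in replicate 2) and 9.37 in doubles, below all 3 knockouts. Its change of -1.99 ± 0.49 was not called by limma (adjusted p = 0.0708) but was by edgeR (0.0301) and DESeq2 (0.00140). Scaled for depth, summed reads in doubles were 0.079 of those in knockouts for Slc7a11, 0.0514 for Chac1 and 0.185 for Cth. Both limma calls were lost in 5 of the 12 fits that left out 1 library, namely any knockout or double replicate 1 or 3 (adjusted p = 0.0503 to 0.1015), and with a term for sex (0.0760 and 0.0665). With the sex term the changes were -3.59 for Slc7a11 and -3.78 for Chac1, while without double replicate 3 that of Slc7a11 was -2.51.

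Without the Ptpmt1 knockout the Eif2a mutation left these genes low. Eif2a mutants had 16.5, 8.11 and 5.25 normalized counts of Slc7a11 and 0, 7.37 and 3.15 of Chac1, which overlap the controls. The library listed at 0 is replicate 1, where 3 reads, the limit that a count of 0 allows, would be 3.81 normalized counts. No member was called by limma in the Eif2a mutant against control, the double against control or the double against the Eif2a mutant, where 0.036%, 0.144% and 0.0072% of tested genes were, and 0 had an unadjusted p under 0.05. edgeR and DESeq2 called 0 members in them too, though DESeq2 gave no adjusted p for Nqo1 in all of these and for 6 more members in the last. The interaction asks whether the effect of Ptpmt1 loss differs with the second mutation. It was -3.91 ± 1.04 for Slc7a11 (limma adjusted p = 0.451), -3.31 ± 1.04 for Chac1 (adjusted p = 0.620) and -1.89 ± 0.69 for Cth (adjusted p = 0.635), all outside the threshold although 3 members had an unadjusted p under 0.05, in a test that called 0.0216% of genes. edgeR called 0 members there, while DESeq2 called Slc7a11 and Chac1 (adjusted p = 0.00183 and 0.00343).

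In PHT the knockout of Ptpmt1 again raised Slc7a11 and Chac1. Slc7a11 had 92.2, 138.8 and 138.1 normalized counts in PHT Ptpmt1 knockouts, against 3.77 and 7.16 in controls. Chac1 had 110.9, 176.4 and 221.1 in knockouts, against 0.942 and 2.39 in controls, which are 1 and 2 reads. Cth had 61.0, 74.5 and 100.04 in knockouts, against 24.5 and 21.5 in controls. No knockout overlapped a control for any of the 3 genes, and knockout replicate 1 was the lowest each time. The change was 4.29 ± 0.64 for Slc7a11 (limma adjusted p = 0.00519), 5.999 ± 0.56 for Chac1 (adjusted p = 6.17e-05) and 1.703 ± 0.37 for Cth, which was called by DESeq2 (adjusted p = 0.00732) and not by limma (adjusted p = 0.0924). So limma called 2 of 9 members, in a comparison that called 0.301% of 14965 tested genes. By reads scaled for depth, Slc7a11 was 24.2 times as high (415 against 10 reads, 95% counting interval 13 to 50.7) and Chac1 110.2 times (568 against 3 reads, 37.5 to 536). The call of Chac1 held under all 18 alternatives, and that of Slc7a11 was lost without control replicate 1 or 2 or knockout replicate 2 (adjusted p = 0.1505, 0.0567 and 0.0547).

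Knockout of Hri together with Ptpmt1 gave low levels of the same genes. PHT doubles had 16.2 and 1.91 normalized counts of Slc7a11, 1.08 and 0 of Chac1 and 17.3 and 30.5 of Cth, all below every Ptpmt1 knockout of that line. For Chac1 that is 1 read in both doubles together, and 3 reads in the library listed at 0 would be 2.86 normalized counts. Both fell against the knockout, with a change of -6.83 ± 0.56 for Chac1 (limma adjusted p = 1.68e-05) and -4.11 ± 0.64 for Slc7a11 (adjusted p = 0.00836), while Cth was at -1.7 ± 0.37 and was called by DESeq2 (adjusted p = 0.00976) and not by limma (adjusted p = 0.0779). Again limma called 2 of 9 members, against 0.327% of all genes. Scaled for depth, the reads of Chac1 in doubles were 0.00291 of those in knockouts (95% counting interval 7.36e-05 to 0.0163) and those of Slc7a11 0.0677 (0.0391 to 0.1097). The call of Slc7a11 was lost with a term for sex (adjusted p = 0.302) and without knockout replicate 2 or double replicate 2 (0.0684 and 0.0669), and both doubles but only 1 of 3 knockouts showed the male pattern. The change of Slc7a11 was -3.72 with the sex term, -4.01 without that knockout and -2.82 without that double.

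Hri knockouts without loss of Ptpmt1 had 3.78 and 10.1 normalized counts of Slc7a11, overlapping the controls. For Chac1 they had 10.1 and 7.01, above both controls (0.942 and 2.39), on 17 reads against 3, a ratio of 5.18 with a 95% counting interval of 1.499 to 27.6. That change was 1.88 ± 0.61 on the log2 scale and was not called (limma adjusted p = 0.9998). The male pattern was seen in 2 of 2 Hri knockouts, 2 of 2 doubles and 0 of 2 controls. Against control, sex and genotype therefore cannot be told apart for these groups. No member was called by limma in the Hri knockout against control, the double against control or the double against the Hri knockout, where 0.02%, 0.0267% and 0.02% of tested genes were, and edgeR and DESeq2 called 0 as well. An unadjusted p under 0.05 was reached by 1 member, 0 members and 2 members, and the 2 were Chac1 (-2.71 ± 0.61) and Nqo1 (1.09 ± 0.42). The interaction was called for Chac1, at -8.71 ± 0.82 (limma adjusted p = 4.90e-04), and for no other member, in a test that called 0.12% of genes. For Slc7a11 it was -4.33 ± 0.96 (adjusted p = 0.182), called by DESeq2 (adjusted p = 0.00157) and not by edgeR.

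In PTGC, Slc7a11, Chac1 and Cth were high where Ptpmt1 and Gcn2 were knocked out together. PTGC doubles had 283.9, 234.8 and 281.4 normalized counts of Slc7a11, against 13.4, 11.5 and 23.5 in controls. They had 222.4, 146.0 and 209.5 of Chac1, against 2.44, 5.23 and 5.34 in controls, and 203.7, 97.0 and 152.5 of Cth, against 17.0, 14.6 and 20.3 in controls. All 3 genes had doubles well above every control, with double replicate 2 the lowest each time. They rose by 4.02 ± 0.25, 5.21 ± 0.30 and 3.001 ± 0.27 (limma adjusted p = 2.44e-06, 2.22e-06 and 7.34e-05), and they were the 3 members of 9 called where 0.743% of 14128 genes were. All 3 calls held under all 14 alternatives. The line has no Ptpmt1 knockout with intact Gcn2 and no Gcn2 knockout alone, so the parts of these losses in the rise cannot be told apart. Levels are not compared with FST or PHT, whose tables were normalized separately. Slc7a11 had every FST and PHT control below the value of 10 that testing required, and Chac1 every control in all 3 tables. Chac1 passed that filter in PTGC through the doubles alone, and in FST and PHT mainly through the Ptpmt1 knockouts. In FST and PHT Slc7a11 also reached it in some of the doubles, Eif2a mutants or Hri knockouts.

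**Figure D1:**
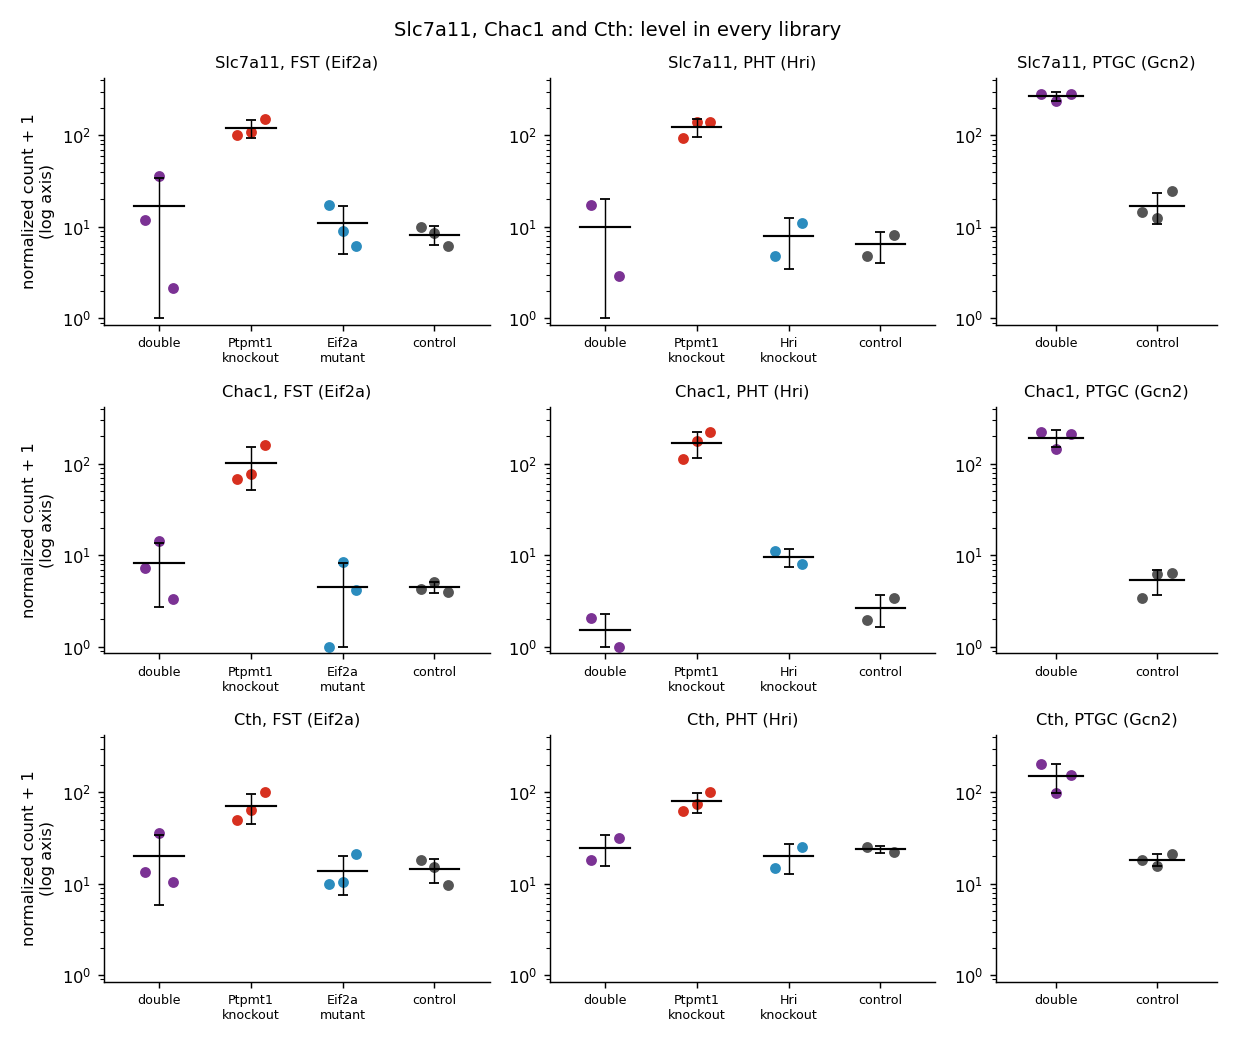
Normalized count plus 1 of Slc7a11, Chac1 and Cth in every library (points, log axis) by group, with the group mean (bar) and SD (whiskers, stopped at a count of 0) over 3 libraries, or 2 for PHT doubles, Hri knockouts and controls. In FST and PHT all Ptpmt1 knockouts lie above all other libraries of the table, and in PTGC all doubles lie above all controls.

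The genes for glutathione synthesis were not called in any comparison. Gclc (chromosome 9, 77754535 to 77794485, plus strand) and Gclm (chromosome 3, 122245557 to 122270732, plus strand) encode the catalytic and the modifier subunit of glutamate-cysteine ligase, which makes the first and limiting bond of glutathione. Gclc had 224.3, 248.2 and 217.1 normalized counts in FST Ptpmt1 knockouts, against 220.5, 217.8 and 244.8 in controls. The ranges overlapped, and the change was 0.01 ± 0.11 (95% interval -0.23 to 0.25, limma adjusted p = 0.984). It was -0.04 ± 0.11 in PHT knockouts (-0.28 to 0.21) and -0.25 ± 0.13 in PTGC doubles (-0.54 to 0.03, adjusted p = 0.460), where the doubles (353.4, 338.0 and 271.8) all lay below the controls (354.3, 377.4 and 412.2). These intervals hold no rise above 0.254 on the log2 scale, while the transporter and Chac1 rose by 3.88 or more. Gclm was at -0.05 ± 0.14 in the FST knockout, -0.17 ± 0.13 in the PHT knockout and -0.18 ± 0.13 in the PTGC double, none called (adjusted p = 0.932, 0.999 and 0.542). In PHT doubles it had 508.0 and 639.0, above all 3 knockouts (462.2, 420.5 and 370.1), a difference of 0.45 ± 0.13 that was not called (limma adjusted p = 0.234). Its exons overlap those of the antisense transcript Gm17494 and the pseudogene Gm6061, and reads of the overlap cannot be assigned here.

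Gpx4 (chromosome 10, 80047166 to 80056439, plus strand), the selenoenzyme that uses glutathione to reduce lipid peroxides and so holds off ferroptosis, was not called either. It had 432.0, 507.8 and 562.2 normalized counts in FST knockouts, against 455.0, 482.1 and 546.2 in controls (0.01 ± 0.15, limma adjusted p = 0.987). In PHT it was at 0.07 ± 0.13 (adjusted p = 0.999), and in PTGC the doubles lay below the controls, at 812.3, 763.7 and 720.8 against 916.7, 869.8 and 842.5. That difference, -0.20 ± 0.10, was not called (limma adjusted p = 0.456). Txnrd1 (chromosome 10, 82833951 to 82897712, plus strand) is the cytosolic thioredoxin reductase. It was at -0.02 ± 0.13 in the FST knockout, -0.12 ± 0.08 in the PHT knockout and -0.07 ± 0.09 in the PTGC double, with 95% intervals within -0.30 and 0.27. Its PTGC doubles, at 1747.5, 1779.6 and 1777.8, all lay below the controls, at 1823.7, 1859.9 and 1874.1, a difference that was not called (limma adjusted p = 0.748). Srxn1 (chromosome 2, 152105516 to 152111376, plus strand), which repairs overoxidized peroxiredoxins, was at 0.10 ± 0.23, 0.04 ± 0.21 and -0.05 ± 0.15 in the same comparisons, none called. FST doubles had 66.1, 35.4 and 48.0 of Srxn1 against 62.1, 64.4 and 64.4 in knockouts, and the lowest value is 8 reads in the shallow replicate 2.

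Nqo1 (chromosome 8, 107388225 to 107403206, minus strand), a quinone reductase and a standard readout of Nrf2 activity, was not called either. It had 10.3, 7.58 and 13.25 normalized counts in FST knockouts, against 12.3, 14.1 and 9.56 in controls (-0.21 ± 0.47, 95% interval -1.21 to 0.79, limma adjusted p = 0.914). In PHT knockouts it had 18.7, 15.04 and 13.005, against 18.8 and 27.4 in controls (-0.53 ± 0.39, adjusted p = 0.999), and in PTGC doubles 20.0, 23.5 and 17.2, against 17.0, 24.0 and 12.8 in controls (0.20 ± 0.31, adjusted p = 0.796). The 95% intervals end at 0.79 in FST, 0.29 in PHT and 0.87 in PTGC. The doubles went in different directions. PHT doubles had 31.3 and 44.8, above every other PHT library, and against knockouts the difference was 1.23 ± 0.39 (limma adjusted p = 0.317), not called. FST doubles had 5.45, 4.42 and 9.37, against 10.3, 7.58 and 13.25 in knockouts (-0.65 ± 0.47, adjusted p = 0.577), where 4.42 is 1 read. In the PHT libraries with high Nqo1 and Gclm the 9 matched erythroid markers held 0.449% and 0.779% of the signal, against 0.301%, 0.274% and 0.0659% in knockouts, 0.533% and 0.367% in Hri knockouts, where Nqo1 was 16.4 and 17.9, and 0.434% and 0.353% in controls. Their part in these differences was not tested.

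**Figure D2:**
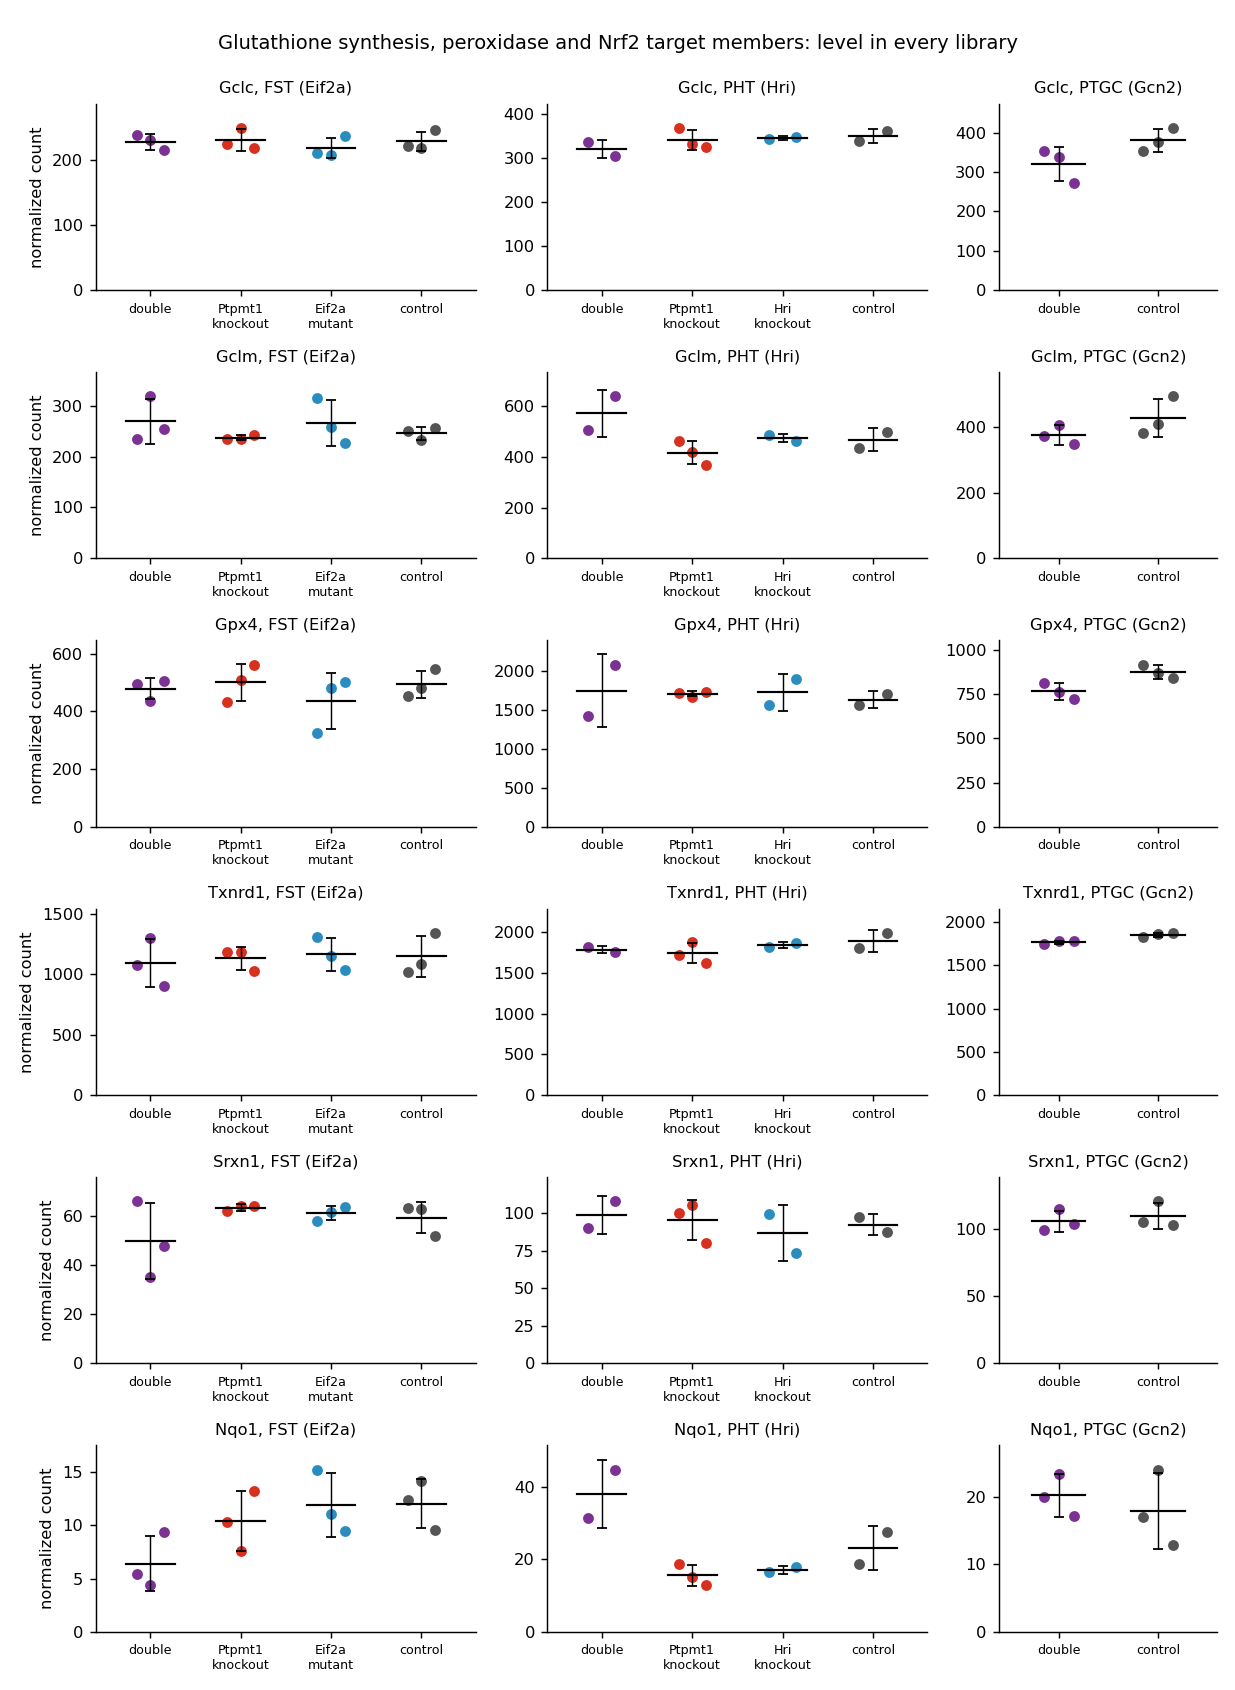
Normalized count of Gclc, Gclm, Gpx4, Txnrd1, Srxn1 and Nqo1 in every library (points, linear axes from 0) by group, with the group mean (bar) and SD (whiskers) over 3 libraries, or 2 for PHT doubles, Hri knockouts and controls. In PHT the 2 doubles lie above all other libraries for Nqo1 (31.3 and 44.8) and Gclm. In PTGC the doubles lie below the controls for Gclc (narrowly, 353.4 against 354.3), Gpx4 and Txnrd1. None of these differences was called, and the share of all genes whose groups separate in this way was not counted.

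**Figure D3:**
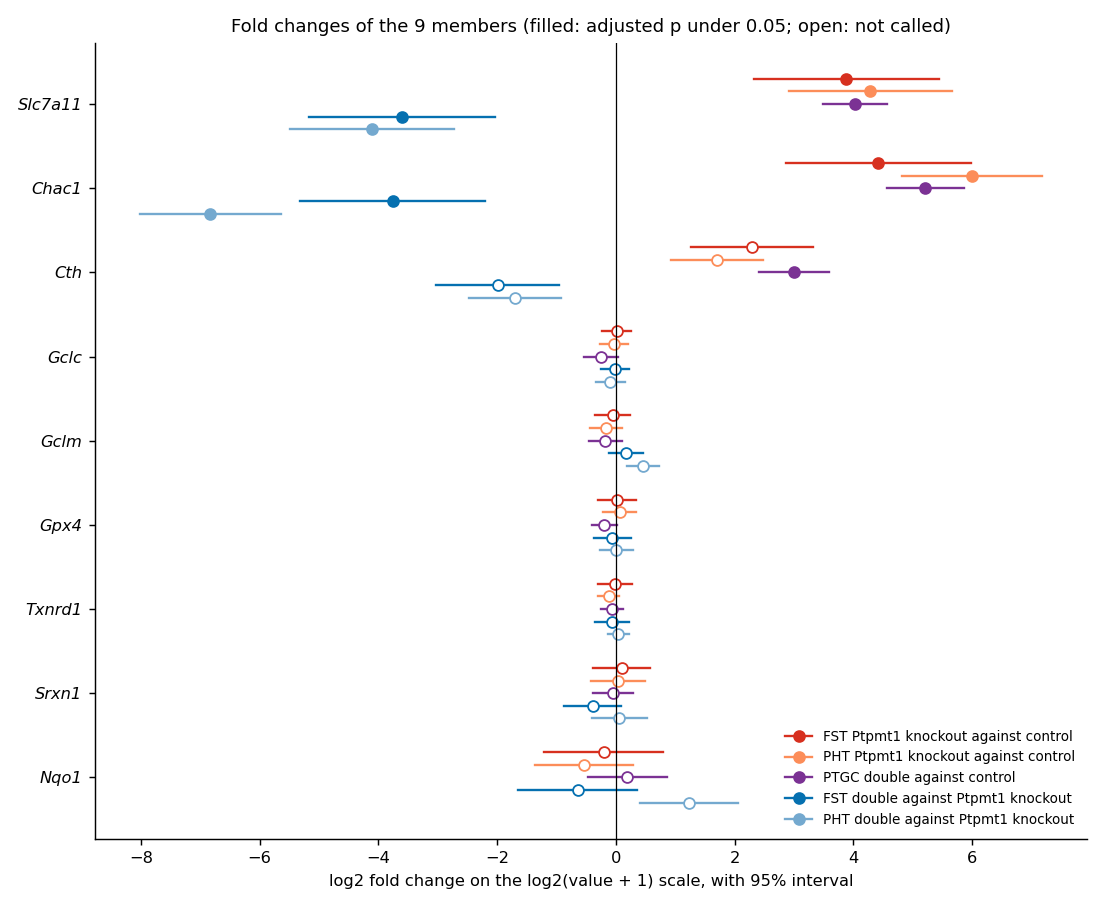
Log2 fold change of the 9 members on the log2(value + 1) scale with its 95% interval from limma, filled where the adjusted p was under 0.05. Comparisons are the Ptpmt1 knockout against control (FST, PHT), the double against control (PTGC) and the double against the Ptpmt1 knockout (FST, PHT). Slc7a11 and Chac1 are filled in all 5 comparisons and Cth in PTGC, while the other 6 members are open, with Nqo1 at 1.23 and Gclm at 0.45 farthest above 0, both in PHT doubles against knockouts.

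The rest of these pathways was described from lists that leave the 9 members out. For all these lists DESeq2 was run without its filter on low counts, a setting added after the data were seen. Of 28 further Nrf2 targets 25 were tested, and limma called 0 in any of the 13 comparisons. Between 1 and 9 of them had an unadjusted p under 0.05, edgeR called 0 throughout, and DESeq2 called at most 2. The 9 of 25 were in PTGC doubles, a larger share than over all tested genes, where 1627 of 14128 had such a p. Their median log2 fold change was -0.05 in the FST knockout, -0.03 in the PHT knockout and -0.10 in the PTGC double, where all tested genes had 0.00 or -0.01. Hmox1, which breaks down haem and is a classic Nrf2 target, was at 0.42 ± 0.22, 0.41 ± 0.21 and 0.53 ± 0.16 in these comparisons (limma adjusted p = 0.430, 0.999 and 0.279), not called. The gene of Nrf2 itself, Nfe2l2, was at -0.09 ± 0.12, 0.01 ± 0.10 and -0.12 ± 0.11, its inhibitor Keap1 at -0.28 ± 0.13, -0.11 ± 0.11 and 0.02 ± 0.12, and the repressor Bach1 at 0.10 ± 0.09, 0.03 ± 0.08 and 0.05 ± 0.12, none called. Of 14 genes of Nrf2 and its regulators limma called 1 in any comparison, the related factor Nfe2l1 in PTGC doubles (0.61 ± 0.09, adjusted p = 0.00414), named after its value was seen. DESeq2 called 2 of this list there and 1 each in the FST and PHT doubles against knockouts. Transcript levels do not measure how much Nrf2 protein is active.

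Glutathione handling beyond the members gave no calls by limma. Of 14 genes for synthesis, recycling and breakdown, such as Gss, Gsr and Chac2, 11 or 12 were tested and limma, edgeR and DESeq2 called 0 in all 13 comparisons, with 0 to 2 at an unadjusted p under 0.05. Limma and edgeR also called 0 of 22 to 25 glutathione peroxidases and transferases, 15 genes of the thioredoxin and peroxiredoxin system, 22 selenoprotein genes and 6 genes for removal of superoxide and peroxide. At an unadjusted p under 0.05 these lists had at most 5, 3, 4 and 3 genes in a comparison, and DESeq2 called at most 2, 0, 1 and 2. In FST knockouts and again in PTGC doubles the counts at this p were 3, 3, 4 and 3. Over all tested genes they were 1860 of 13896 and 1627 of 14128. Each of these lists lay above both shares, that of peroxidases and transferases, 3 of 22 and 3 of 23, only slightly. The superoxide and peroxide list, 3 of 6, lay farthest above. List medians were -0.027, -0.077, -0.061 and -0.105 in FST knockouts, and -0.118, -0.143, -0.112 and -0.249 in PTGC doubles. Of 9 tested genes of cystine and cysteine supply limma called 1 in FST knockouts (Slc1a4), 1 in PHT knockouts (Slc3a2) and both in PTGC doubles, with list medians of 0.05, -0.03 and -0.02. Slc3a2, the partner chain of Slc7a11, averaged 1167 ± 154 normalized counts in PHT Ptpmt1 knockouts (n = 3), against 699 ± 7.37 in controls (n = 2), a rise of 0.73 ± 0.11 (limma adjusted p = 0.00504). It fell by 0.77 ± 0.11 in PHT doubles against knockouts (adjusted p = 0.00346), rose by 1.24 ± 0.12 in PTGC doubles (adjusted p = 1.43e-04), and was at 0.76 ± 0.18 in FST knockouts, not called (adjusted p = 0.0810). Slc1a4, a carrier of small neutral amino acids, rose by 1.43 ± 0.23 in FST knockouts (adjusted p = 0.00940), fell by 1.36 ± 0.23 in FST doubles against them (0.0101) and rose by 1.61 ± 0.14 in PTGC doubles (7.34e-05). In PHT it was at 0.95 ± 0.21 (adjusted p = 0.113), not called. Of 14 ferroptosis genes Slc3a2 was the one limma called in PHT knockouts and PTGC doubles, and in PHT doubles against knockouts it was joined by Tfrc, the transferrin receptor, which rose by 0.51 ± 0.10 (adjusted p = 0.0410), named after its value was seen, with erythroid markers at 0.449% and 0.779% of the signal in doubles and 0.0659% to 0.301% in knockouts, whose part in it was not tested. In FST knockouts limma called 0 of this list, with 4 at an unadjusted p under 0.05, and edgeR and DESeq2 called 1 each, and in PHT doubles against knockouts DESeq2 called 3. PTGC doubles had 6 of the 14 at an unadjusted p under 0.05. That share and the one in FST knockouts, 4 of 14, were larger than those over all tested genes.

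Atf4 and its classic targets, a list made with earlier results of these libraries known and so no independent evidence, were the group that moved with Slc7a11 and Chac1. Besides the members, 8 of 21 tested genes rose in FST Ptpmt1 knockouts, 13 of 22 in PHT knockouts and 18 of 22 in PTGC doubles, and 0 fell. The medians were 0.79, 0.76 and 1.31 on the log2 scale, where all tested genes had 0.00 or -0.01. In doubles against knockouts 8 of 21 fell in FST (median -0.74) and 13 of 22 in PHT (median -0.95), and 0 rose. Atf4 itself rose by 0.97 ± 0.13 in FST knockouts (limma adjusted p = 0.00285), 0.87 ± 0.12 in PHT knockouts (0.00191) and 1.203 ± 0.11 in PTGC doubles (6.48e-05). Asns, which makes asparagine, averaged 1205 ± 238 normalized counts in FST knockouts against 232 ± 25 in controls (n = 3 each, 2.36 ± 0.15, adjusted p = 1.56e-06). Trib3, a pseudokinase that damps Atf4, rose by 3.96 ± 0.34 in FST and 3.57 ± 0.43 in PHT (adjusted p = 2.51e-05 and 6.69e-04). The mitochondrial folate enzyme Mthfd2 rose by 1.88 ± 0.18 and 1.69 ± 0.16 (5.35e-05 and 6.17e-05). In PHT knockouts the stress factor gene Atf5 rose by 2.19 ± 0.17 (limma adjusted p = 3.10e-05) and Phgdh, the first enzyme of serine synthesis, by 1.26 ± 0.12 (6.97e-05).

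**Figure D4:**
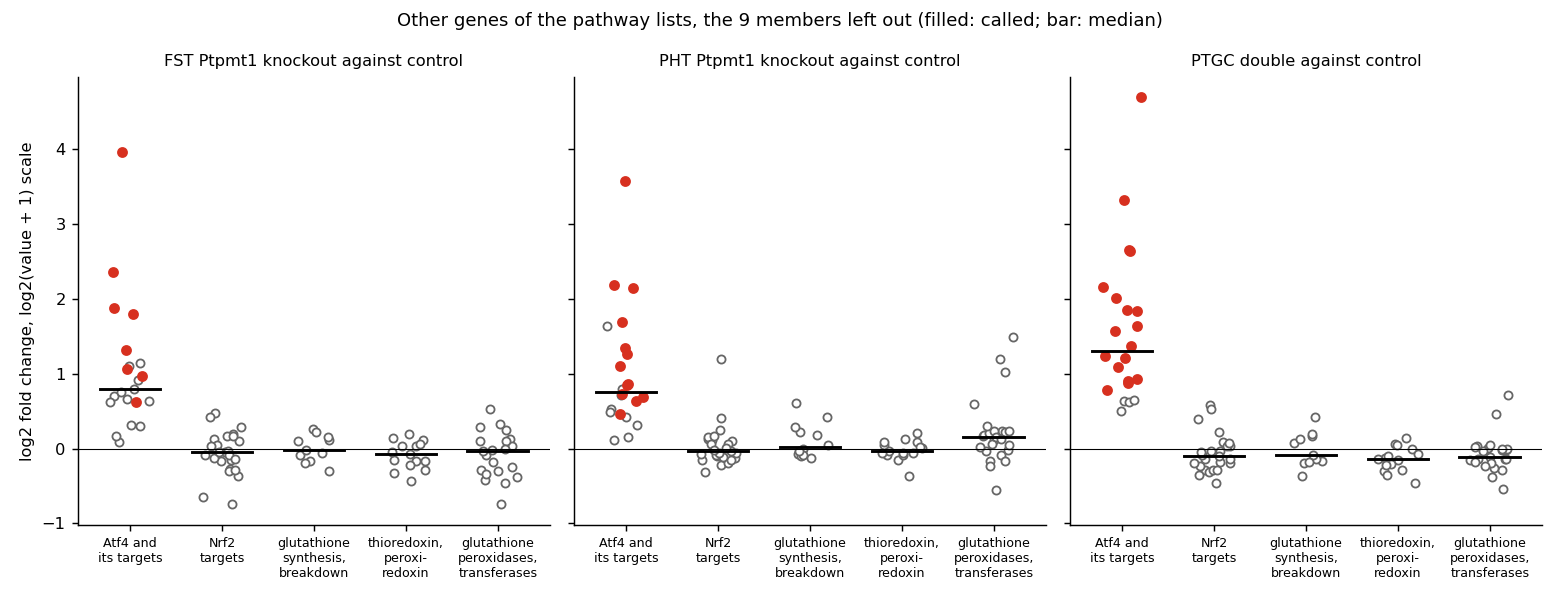
Log2 fold change on the log2(value + 1) scale of each tested gene in 5 pathway lists, without the 9 members (filled where the limma adjusted p was under 0.05, bar at the list's median). Comparisons are the Ptpmt1 knockout against control in FST and PHT and the double against control in PTGC. Called genes are seen in the Atf4 list, 8, 13 and 18 of them, and in none of the other 4 lists shown, while the lists of cystine supply, ferroptosis and Nrf2 regulators, which are not drawn, had 0 to 2 each.

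The genes whose levels were most like those of the members across libraries differed between the called and the uncalled members. Likeness was Pearson's r of log2(value + 1) over the 12 FST libraries among genes with a mean of at least 50, with r over the 9 PHT libraries beside it. These libraries fall into knockouts and others for the moved genes, so r there mainly repeats that split. Closest to Chac1 were Psph, the last enzyme of serine synthesis (r = 0.973 in FST, 0.901 in PHT), the glycine transporter Slc6a9 (0.953 and 0.697) and Asns (0.952 and 0.910). Closest to Slc7a11 were the tRNA synthetases Yars (0.917 and 0.793) and Nars (0.908 and 0.831) and the epimerase gene Glce (0.903 and -0.092). For Gclm (C030037D09Rik, Pcsk7 and Coro7) and Nqo1 (Rab3ip, Smarcc2 and Dpf2) the closest genes in FST, at r = 0.893 to 0.949, had r of -0.714 to -0.116 in PHT, so that likeness was not seen in the second table. FST Gclm was highest in the libraries that stood apart, Eif2a mutant replicate 1 (315.9) and double replicate 2 (318.2). It was 226.6 to 257.9 in the rest, and r without those libraries was not computed.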

How the data were processed

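RNA sequencing data of 27 libraries from 3 mouse lines were analysed, and 6 of the 33 samples, of another line, were not analysed here. The deposited values are a signal, gene counts divided by a size factor per library, which the authors made separately for each table, so levels are not compared between tables. Per the submitters' processing notes the tools included STAR 2.5.3a and DESeq2 1.12.4 with build mm10, with no role stated. The read counter, its annotation and any use of strand were not given in the sources used here. All columns mapped to a sample (0 unmapped). In every deposited file 26 gene symbols had been turned into dates. The values were whole multiples of 1 read in 100% of cases within a tolerance of 0.1 read, so reads could be recovered.

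A gene was tested where its value was at least 10 in as many libraries as the smallest group holds. limma 3.58.1 (R 4.3.3, trend) was run on log2(value + 1), 1 fit per table over all groups, with Benjamini-Hochberg adjustment over all tested genes, and a gene was called at an adjusted p under 0.05. Intervals and limits on summed reads cover counting error only. Alternatives were pseudocounts of 0.5 and 10, no filter, only the groups compared, TMM scaling, edgeR 4.0.16 and DESeq2 1.42.0 on recovered reads, a sex term and leaving out libraries. The fits were tested on simulated data. Nothing says that replicates came from separate animals, so p-values measure only the spread between these samples. Members and lists were chosen with earlier results of these data known. Genes named besides members were the targeted genes, the called genes with the smallest p in FST and PHT Ptpmt1 knockout against control (at most 4 per list and comparison), and, whatever their p, Nfe2l2, Keap1, Bach1, Hmox1, Slc3a2 and Atf4. Positions are those of GENCODE M21 on GRCm38, and promoter sequences those of RefSeq.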

Additional observations from a re-analysis of the deposited data

Results flagged for a closer look

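The effect of Ptpmt1 loss on Chac1 differed between libraries with and without the Hri knockout label in the PHT line, by a test of the difference itself. The interaction was -8.71 ± 0.82 on the log2(value + 1) scale (limma adjusted p = 4.90e-04). The doubles had 1.08 and 0 normalized counts, Ptpmt1 knockouts 110.9, 176.4 and 221.1, Hri knockouts 10.1 and 7.01, and controls 0.942 and 2.39. Its size depends on the pseudocount, with -9.65 at 0.5 and -4.71 at 10, because the doubles together hold 1 read and the controls 3 reads. It was called under all 17 alternatives (adjusted p = 1.62e-06 to 0.00997).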

How the results depend on the processing

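Across 2252 values recomputed for members under the alternatives, 2187 kept their side of the threshold, 129 values that were not called changed sign, 32 calls were lost, 33 were gained and 0 reversed. In the FST Ptpmt1 knockout against control, the 2 called members became 1 without a filter and 0 with a sex term, and 0 to 3 when 1 library was left out, and 3 with a pseudocount of 10, only the groups compared, edgeR, DESeq2 without its filter or both libraries that stood apart left out. In the FST double against the knockout, the 2 became 1 with a pseudocount of 0.5, without a filter or with only the groups compared, 0 with a sex term, 0 to 3 with 1 library left out, and 3 with a pseudocount of 10, edgeR, DESeq2 or both of those libraries left out. In the FST interaction, the 0 became 1 with a pseudocount of 10 or both libraries that stood apart left out, and 2 with DESeq2, with or without its filter on low counts. In PHT, leaving out 1 library gave 1 to 3 called members for the knockout against control and 1 to 2 for the double against the knockout, where a sex term gave 1. Both gave 3 with a pseudocount of 10 and with DESeq2, and the knockout against control also with only the groups compared. In the PHT interaction, the 1 became 2 with a pseudocount of 10 and with DESeq2, with or without its filter, and was 1 to 2 with 1 library left out. The causes were not tested. DESeq2 without its filter was added after the data were seen, since DESeq2 gave no adjusted p for 6 members in the FST knockout against control, Slc7a11 and Chac1 among them. No paired analysis was possible because the labels give no replicate numbers shared between groups. Depth limits the low members most: Slc7a11, Chac1, Cth, Nqo1 and Srxn1 rest on 1 to 8 reads in FST double replicate 2.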
